A study of Mus musculus with 2 samples.

Results

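Microexons are internal exons so short that they add only a handful of amino acids to a protein. Here they were taken as internal exons of 3 to 27 bases, by the exon coordinates of transcript models in genes of the mouse annotation, in models whose splice junctions matched an annotated transcript (Known), joined annotated splice sites in a new way (NIC) or used an unannotated splice site (NNC). The rule found 725 microexons with at least 1 read in 626 genes, among 161835 internal exons of all lengths. The measurements came from long-read RNA sequencing, in which a read can run through a whole transcript, of adrenal glands. The mice were male B6CASTF1/J animals 14 days old, first-generation hybrids of the B6 and CAST strains. There was 1 group, untreated as far as the labels say, with 2 libraries called replicates 1 and 2. The labels describe a set of 3 males, give both libraries a single donor identifier and number the tissue samples 3 and 4, so they do not show whether separate animals were used, and all p-values compare these libraries only. Replicate 1 had 964815 reads and replicate 2 had 985101 reads outside spike-ins, and 773672 and 750473 of them were in Known, NIC or NNC models of annotated genes.

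Microexons are known for their use in neurons, where the activator Srrm4 binds the intron just before the exon and the repressor Ptbp1 is low, so that neuronal forms of synaptic, cytoskeletal and trafficking proteins are made. Most such exons keep the reading frame and lie at the surface of protein domains that bind other proteins. Endocrine cells that share features with neurons use part of this programme, while many other short exons are spliced into every transcript of their gene. The adrenal gland joins a steroid-making cortex to a medulla of chromaffin cells, which derive from the neural crest. Both were present in these libraries: the 7 cortex markers summed to 39447 and 39293 reads per 1000000 (CPM) in replicates 1 and 2, and the 8 chromaffin markers to 9164 and 8905 CPM. The 3 brown fat markers summed to 9448 and 9372 CPM. The 8 neuron markers summed to 217 and 69.0 CPM.

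The sequences of selected microexons are given 5′ to 3′ on the transcript strand from the GENCODE M21 transcripts (mm10 coordinates), with the microexon in capitals and 12 bases of each neighbouring exon in lower case. They are reference sequences and do not show CAST alleles. The first set begins with the 3 shortest annotated microexons with a read count of at least 10. Arhgef10l and Sptan1 also had a 15-base exon, with 16 and 14 reads against 31 for that of Abi1. The set also holds longer ones that were both included and skipped.
Dnm2, chr9:21490658-21490669, plus strand, 12 bases: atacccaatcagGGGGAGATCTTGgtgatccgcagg
Agap1, chr1:89610284-89610295, plus strand, 12 bases: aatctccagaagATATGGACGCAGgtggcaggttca
Abi1, chr2:22963214-22963228, minus strand, 15 bases: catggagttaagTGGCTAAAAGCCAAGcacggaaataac
Anxa6, chr11:54987051-54987068, minus strand, 18 bases: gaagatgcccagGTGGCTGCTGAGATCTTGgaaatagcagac
Nckap1, chr2:80571213-80571230, minus strand, 18 bases: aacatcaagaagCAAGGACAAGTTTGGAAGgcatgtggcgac
Senp6, chr9:80098886-80098906, plus strand, 21 bases: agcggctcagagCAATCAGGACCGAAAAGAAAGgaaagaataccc
Picalm, chr7:90194273-90194296, plus strand, 24 bases: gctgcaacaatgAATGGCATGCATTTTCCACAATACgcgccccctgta
Mark2, chr19:7279986-7280012, minus strand, 27 bases: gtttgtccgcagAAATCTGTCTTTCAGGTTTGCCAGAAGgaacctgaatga
Mark3, chr12:111651958-111651984, plus strand, 27 bases: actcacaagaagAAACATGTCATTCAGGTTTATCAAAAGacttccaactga
Tpd52, chr3:8943551-8943577, minus strand, 27 bases: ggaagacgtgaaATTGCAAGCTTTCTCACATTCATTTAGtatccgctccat
Tpd52l2, chr2:181510504-181510530, plus strand, 27 bases: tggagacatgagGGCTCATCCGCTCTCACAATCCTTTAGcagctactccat

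The exons of Mark2 and Mark3 had 21 of 27 bases in common, and those of Tpd52 and Tpd52l2 had 17 of 27. Mark2 and Mark3 encode related kinases that act on microtubule-associated proteins, and Tpd52 and Tpd52l2 encode related coiled-coil proteins. Within each pair, the exons had the same length.

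The second set shows families in which microexons recur in several genes, the vitamin K-dependent proteins and the collagens described further on.
F2, chr2:91635171-91635195, minus strand, 25 bases: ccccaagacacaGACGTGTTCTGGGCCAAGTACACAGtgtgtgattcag
F7, chr8:13030557-13030581, plus strand, 25 bases: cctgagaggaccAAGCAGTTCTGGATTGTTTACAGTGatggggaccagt
F9, chrX:60004408-60004432, plus strand, 25 bases: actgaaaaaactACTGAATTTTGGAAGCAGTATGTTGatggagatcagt
F10, chr8:13045076-13045100, plus strand, 25 bases: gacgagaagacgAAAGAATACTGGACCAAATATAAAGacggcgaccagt
Proz, chr8:13064602-13064626, plus strand, 25 bases: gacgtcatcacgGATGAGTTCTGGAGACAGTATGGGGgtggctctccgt
Pros1, chr16:62888981-62889005, plus strand, 25 bases: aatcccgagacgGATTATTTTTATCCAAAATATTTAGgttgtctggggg
Gas6, chr8:13485671-13485695, minus strand, 25 bases: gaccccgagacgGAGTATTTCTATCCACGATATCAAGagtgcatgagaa
Col4a1, chr8:11240041-11240067, minus strand, 27 bases: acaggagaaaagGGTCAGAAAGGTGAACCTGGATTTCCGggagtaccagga
Col6a1, chr10:76718517-76718543, minus strand, 27 bases: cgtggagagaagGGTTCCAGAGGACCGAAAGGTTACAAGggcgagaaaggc
Col18a1, chr10:77072942-77072968, minus strand, 27 bases: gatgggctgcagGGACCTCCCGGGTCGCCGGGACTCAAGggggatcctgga
Col13a1, chr10:61905254-61905280, minus strand, 27 bases: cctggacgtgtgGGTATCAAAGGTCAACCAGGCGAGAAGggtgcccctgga

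The third set holds annotated short exons that were skipped in every read.
Phb2, chr6:124716425-124716430, plus strand, 6 bases: aagttttactcgGGGAAGtgacagcctcat
Nsfl1c, chr2:151502455-151502460, plus strand, 6 bases: ggagggacagagGAGCAGgttttatgctgg
Ap2m1, chr16:20540808-20540813, plus strand, 6 bases: atcaagagtcagCATCAGacgaaggaagaa
Kdm1a, chr4:136563438-136563449, minus strand, 12 bases: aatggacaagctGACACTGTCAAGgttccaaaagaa
Ergic3, chr2:156015377-156015391, plus strand, 15 bases: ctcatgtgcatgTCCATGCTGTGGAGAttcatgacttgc
Abi1, chr2:22971027-22971041, minus strand, 15 bases: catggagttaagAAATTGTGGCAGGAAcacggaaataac

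Of the 725 microexons, 555 were annotated and 170 were not. Included reads, those of a model that contains the exon, numbered 16613 in replicate 1 and 16801 in replicate 2. Of the 725, 423 had an included read in both libraries, 161 in replicate 1 only and 141 in replicate 2 only, and 230 rested on a single included read. The unannotated ones were mostly thin: 135 of 170 had 1 included read in all, and 9 had at least 5. Lengths were skewed to the long end, with 454 microexons of 24 to 27 bases and 3 under 12 bases. Those 3 were unannotated, had 1 read each and lay in Cast, Cbx2 and C4b, named here after their values were seen.

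Skipping reads were those of models that joined the flanking exons directly, and inclusion was the share of included reads among included and skipping reads. With at least 10 such reads over both libraries, 338 microexons entered the comparison of inclusion. Of these, 232 were included in over 90% of reads, 51 in under 10%, and 55 (16.3%) in 10 to 90%. Over internal exons of all lengths, 2.99% of those with 10 reads had an inclusion of 10 to 90%. The median inclusion was 100% for microexons and 100% for exons of 28 bases and over. Exons of any length entered only with an included read, so these shares and medians leave out exons that were always skipped. Of 478 annotated exons of 3 to 27 bases with 10 reads, 174 had no included read and stayed out. The median of 100% was thus partly set by this filter. Among the microexons, 200 (59.2%) had no skipping read, against 85.5% of the longer exons.

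The share of exons that were both included and skipped changed with length. It was 16.3% for microexons, 6.91% for exons of 28 to 50 bases, 3.52% for those of up to 100 bases, 2.31% for those of up to 150 bases and 2.46% for longer ones. In replicate 1 alone it was 16.4% of 269 microexons and 2.68% of exons of 28 bases and over. In replicate 2 alone it was 15.3% of 248 microexons and 2.55% of the longer exons. Among annotated exons it was 16.2% for microexons and 2.55% for longer exons. Microexons with 10 to 49 reads had a share of 19.4%, against 4.03% for longer exons of that depth. With 200 reads or more the shares were 9.80% for microexons and 1.01% for longer exons. With Known models only the shares were 8.41% for microexons, 19 exons, and 1.16% for longer exons. No test over exons was made, since exons of a gene share reads. Just inside the limit, 16 of 99 exons of 27 bases (16.2%) were in the range. Just outside it there were 3 of 49 exons of 28 bases (6.12%), a length that, unlike 27, is not divisible by 3. At 30 bases, the next length divisible by 3, there were 7 of 99 (7.07%). Exons of 33 bases, picked after their values were seen, had 26 of 146 (17.8%).

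**Figure D1:**
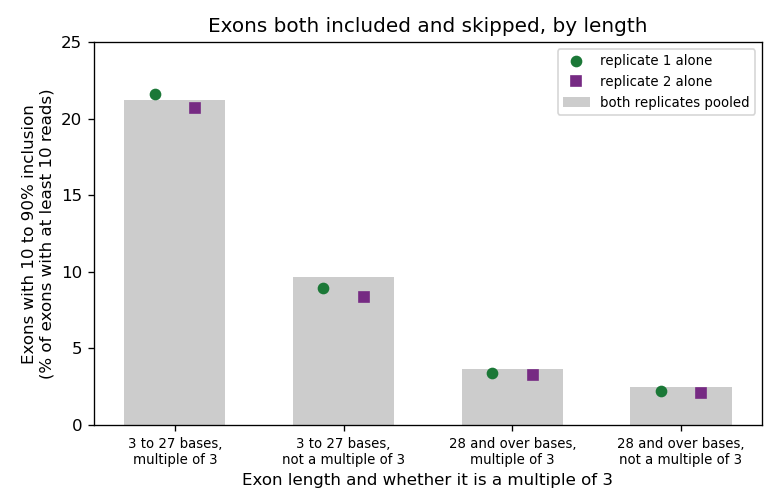
Percentage of internal exons with at least 10 reads whose inclusion was 10 to 90% (vertical axis), for microexons and longer exons, each divided into lengths that are and are not a multiple of 3 (horizontal axis). Bars give both libraries pooled and points give each library alone, and the bar for microexons of a length divisible by 3 stands at 21.2%, above the others.

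Among microexons that were optional, meaning 10 to 90% inclusion, a larger share had a length that keeps the reading frame. Of the 338 with 10 reads, 193 (57.1%) had a length divisible by 3, against 38.6% of longer exons. Among microexons of 10 to 90% inclusion it was 41 of 55 (74.5%), and among those over 90% it was 113 of 232 (48.7%), while longer exons had 48.1% and 38.4%. In coding sequence alone the counts were 37 of 45 (82.2%) for 10 to 90% inclusion and 108 of 220 (49.1%) for over 90%. Seen the other way, 21.2% of microexons with a length divisible by 3 were both included and skipped, and 9.66% of the others, against 3.66% and 2.48% of longer exons. Most of the 338 were coding (284), 5 lay in 5′ untranslated regions and 9 were partly coding.

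Optional microexons had longer introns around them than microexons that were nearly always included. With the shortest intron seen on each side of an exon, the median upstream intron was 1565 bases for 10 to 90% inclusion and 1043 bases for over 90%, and the median downstream intron was 1423 and 708.5 bases. For longer exons the medians were 1608 and 1109 bases upstream, and 1781.5 and 1021 bases downstream. Base composition differed little: annotated microexons of 10 to 90% inclusion held 46.3% G and C and those over 90% held 48.2%, against 51.3% and 51.6% in longer exons. The last exon base was G in 77.1% of the optional and 80.7% of the nearly always included microexons. These are descriptions of exons, with no test.

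The 25 microexons with the most reads among those of 5 to 95% inclusion are given by the roles of their genes, together with a few others, and no enrichment of a role was tested. Dnm2, the dynamin GTPase that releases endocytic vesicles, carried the shortest well-covered microexon, of 12 bases. It was included in 66 and 53 reads and skipped in 61 and 39 reads of replicates 1 and 2, an inclusion of 52.0% and 57.6% (mean 54.8 ± 3.99, SD, n = 2). Both forms were thus abundant in both libraries. Nckap1, a subunit of the WAVE complex that drives actin branching, included its 18-base exon in 9 and 6 reads against 53 and 39 skipping reads. Abi1, which binds Nckap1 in that complex, included a 15-base exon in 9 and 4 reads and skipped it in 11 and 7, or 41.9% over both libraries. A second 15-base exon of Abi1, annotated between the same neighbours, had no included read among 18.

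Trappc9, a subunit of a Golgi tethering complex, included its 27-base exon in 19 and 14 reads against 50 and 44 skipping reads, or 27.5% and 24.1%. Mia2, which helps load large cargo at exit sites of the endoplasmic reticulum, had 58 and 51 included and 12 and 18 skipping reads, or 82.9% and 73.9%. Git1, a GTPase-activating protein of Arf, was low, with 4 and 2 included against 42 and 35 skipping reads. Agap1, of the same class, had 1 and 1 included reads of its 12-base exon and 22 and 20 skipping reads. Picalm, a clathrin assembly protein, included its 24-base exon in 16 and 9 reads and skipped it in 11 and 5. Dctn1, the large subunit of the dynein activator dynactin, included the upstream of its 21-base exons in 4 and 10 reads and the downstream one in 6 and 4, each against 141 and 116 skipping reads. With Known models only, the inclusion over both libraries became 5.62% for Nckap1, against 14.0% in the count used here, and 0.948% for the downstream exon of Dctn1.

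Anxa6, a calcium-dependent membrane-binding annexin, had an 18-base exon with 96 and 92 included reads and 38 and 42 skipping reads. Its inclusion was 71.6% and 68.7% (mean 70.1 ± 2.11, SD, n = 2), with Wilson 95% intervals of 63.5 to 78.6% and 60.4 to 75.9%. The libraries overlapped across most of that range. Cd47, the surface signal that restrains phagocytosis, was mostly without its 25-base exon, which was in 35 and 27 reads against 147 and 145 skipping reads, or 19.2% and 15.7%. Lgals8, a galectin, had 43 and 46 included and 4 and 2 skipping reads. Sgce, an imprinted sarcoglycan, had 29 and 31 included reads of its 27-base exon and 8 and 7 skipping reads. Slc38a10, an amino acid transporter, had 3 and 3 included and 50 and 33 skipping reads. Over both libraries, Cd47 moved from 17.5% to 37.4% with Known models only, and Slc38a10 from 6.74% to 3.75% without models of a single read.

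The paralogous kinases Mark2 and Mark3 used their similar 27-base exons at different levels. Mark3 had 85 and 71 included and 25 and 21 skipping reads, or 77.3% and 77.2%. Mark2 had 23 and 9 included and 58 and 34 skipping reads, or 28.4% and 20.9%. The intervals of the 2 genes did not overlap in either library, which were 68.6 to 84.1% and 67.6 to 84.6% for Mark3 and 19.7 to 39.0% and 11.4 to 35.2% for Mark2. Ptpra, a receptor tyrosine phosphatase, included its 27-base exon in 14 and 11 reads against 90 and 72 skipping reads, or 13.5% and 13.3%. Gnas, which encodes the stimulatory G protein alpha subunit, had a 24-base exon, annotated in a transcript without coding sequence, in 25 and 8 reads against 99 and 72 skipping reads, an inclusion of 20.2% and 10% in replicates 1 and 2. With Known models only, Gnas reached 100% over 25 reads, all included, and Mark2 fell to 17.2% over both libraries, against 25.8% in the count used here. Counting any intron that spans the exon as skipping gave 9.09% for Gnas. All 25 included reads of Ptpra and all 33 of Trappc9 were in NIC models, which join annotated splice sites in a new way.

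**Figure D2:**
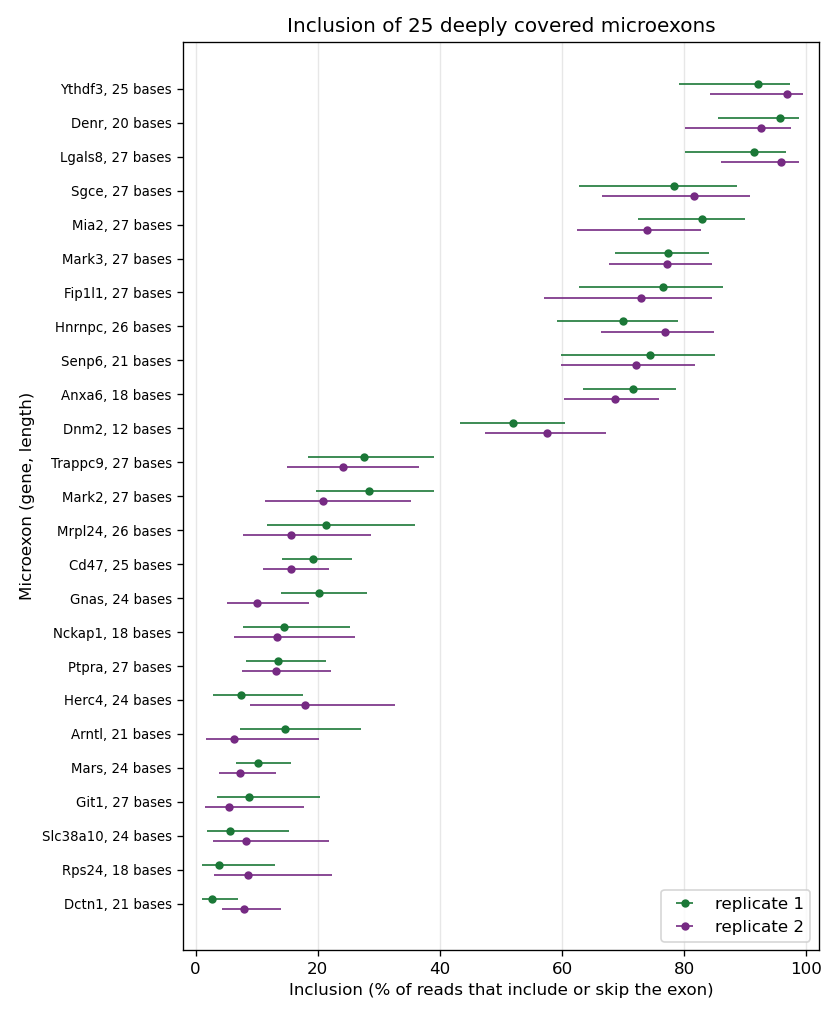
Inclusion of each of 25 microexons in percent of the reads that include or skip it (horizontal axis), by gene and exon length (vertical axis), in replicate 1 and replicate 2; points are libraries and lines are Wilson 95% intervals. The exons run from Dctn1 at 2.76% and 7.94% to Ythdf3 at 92.1% and 96.9%, and both libraries' intervals overlap for each exon.

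Fip1l1, a factor of messenger RNA 3′ end formation, had 36 and 27 included reads of a 27-base exon and 11 and 10 skipping reads. Hnrnpc, an RNA-binding protein, carried its 26-base microexon in the 5′ untranslated region, with 56 and 60 included and 24 and 18 skipping reads. Mrpl24, of the mitochondrial ribosome, likewise had a 26-base exon before its coding sequence, in 9 and 7 reads against 33 and 38. Mars, the methionyl-tRNA synthetase, included 24 bases in 18 and 9 reads and skipped them in 157 and 115. Rps24, of the cytosolic ribosome, included 18 bases in 2 and 3 reads against 50 and 32 skipping reads. Denr, a translation reinitiation factor, and Ythdf3, a reader of methylated adenosine, lay at the other end, at 94.2% and 94.3% over both libraries. Their lengths of 20 and 25 bases shift the frame when skipped. With Known models only both reached 100%. Counting any intron that spans the exon as skipping gave 88.0% for Denr.

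Senp6, a SUMO protease, included its 21-base exon in 32 and 44 reads and skipped it in 11 and 17, or 74.4% and 72.1%. Herc4, a ubiquitin ligase, had 4 and 7 included and 50 and 32 skipping reads, or 7.41% and 17.9%. Arntl, the clock activator also called BMAL1, had 7 and 2 included and 41 and 30 skipping reads of a 21-base exon. The inclusions of all 25 ran from 5.17% in Dctn1 to 94.3% in Ythdf3. None of the 25 lay between 26.0% in Trappc9 and 54.3% in Dnm2. Microexons with fewer reads did lie there, such as Pecam1 at 42.9% and Snx14 at 34.1% over both libraries.

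Other optional microexons are named after their values were seen. Pecam1, an endothelial adhesion molecule, included its 23-base exon in 19 and 8 reads and skipped it in 22 and 14. Axl, a receptor tyrosine kinase, had 17 and 13 included and 9 and 6 skipping reads. Mtmr1, a phosphoinositide phosphatase, was near the middle with 19 and 6 included and 17 and 7 skipping reads. Csnk1g3, a casein kinase, had 24 and 17 included and 10 and 13 skipping reads. Tpd52l2 had 6 and 3 included and 29 and 22 skipping reads, and Tpd52 had 2 and 6 included and 11 and 7 skipping reads. Map2k5, a kinase of the Erk5 pathway, was high at 86.8%.

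Some reads spanned neighbouring microexons of a gene. Ptk2, the focal adhesion kinase, had an 18-base and a 21-base microexon in 52 spanning reads: 3 carried both, 9 the 21-base exon alone, 0 the 18-base exon alone and 40 neither. In Col13a1, a transmembrane collagen, 9 of 24 reads carried both 27-base exons, 13 the downstream one alone, 0 the upstream one alone and 2 neither. With 3 reads carrying both in Ptk2, the pattern there rests on few reads. In Col13a1 only 2 reads lacked the downstream exon, so the 0 with the upstream exon alone cannot show a pattern. Dctn1 had 275 spanning reads for its pair of 21-base exons. Of these, 0 carried both, 14 the upstream exon alone, 2 the downstream one alone and 259 neither. With the downstream exon in 2 of these reads, hardly any could carry both, so the 0 cannot show a pattern either. The downstream exon had 6 and 4 included reads in replicates 1 and 2, and not all of these were in this count. Ptk2 and Col13a1 were chosen after their values were seen.

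Included and skipping reads were compared between libraries with Fisher's exact test, two-sided. After Benjamini-Hochberg adjustment over 9395 internal exons of all lengths, 2 exons passed 0.05 (0.0213%), and 0 of the 108 microexons tested did. At an unadjusted p under 0.05 there were 105 exons of all lengths and 0 microexons, and Holm adjustment also called 0 microexons. The smallest p of a microexon in that exact test was 0.0785 before adjustment, for Gnas. Of the 55 optional microexons, 35 had 10 reads in each library, and their inclusion differed by a median of 6.62 percentage points (median SD 4.68, n = 2). The intervals of the libraries overlapped for all 35, and the Pearson correlation between libraries over these 35 exons was 0.911, as a description. The largest difference, 40 percentage points, was in Suco, with 5 and 1 included and 5 and 9 skipping reads, so at 10 reads a library a difference of that size was not called.

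Many short exons were a fixed part of their transcripts. Rpl41, a ribosomal protein gene, had a 25-base exon in 1082 and 1299 reads with no skipping read, and Gpx4, the peroxidase that repairs oxidised phospholipids, had one of 25 bases in 981 and 1097. Uqcrh, of respiratory complex III, carried 21 bases in 353 and 414 reads. Its inclusion over both libraries was 96.0% when any intron that spans the exon counted as skipping. Atp5mpl, of the ATP synthase, carried 24 bases in 313 and 408 reads. Poldip2 carried 27 bases in 254 and 280 reads. With only direct joins counted as skipping, the lower Wilson 95% bounds ran from 98.5% for Poldip2 to 99.7% for Rpl41 in the libraries concerned.

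The vitamin K-dependent proteins, plasma proteins that bind membranes through a carboxylated domain, shared a 25-base microexon. It was found in 8 genes, F2, F7, F9, F10, Proc, Pros1, Proz and Gas6, with 25 bases in each and no skipping read. In the 7 exons compared, 5 of 25 positions held the same base in all, and pairs shared 8 bases (Pros1 and F7) to 19 bases (Gas6 and Pros1). F2, prothrombin, had 8 included reads in replicate 1 and 255 in replicate 2, and Proc, protein C, had 2 and 99. F7 had 1 and 19, Proz 1 and 17, F9 0 and 3, and F10 0 and 1. Gas6, a ligand of Axl, had 63 and 62, and Pros1, protein S, had 70 and 55. The family and the families below were chosen after their values were seen.

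The reads of F2, Proc, F7 and Proz were higher in replicate 2, as were those of hepatocyte genes, while F9 and F10 had too few reads to compare. All 8 hepatocyte markers, which include Alb and Ttr, had more reads in replicate 2, and together they reached 754 and 15655 CPM in replicates 1 and 2. In tissue RNA, fewer cells of a type and less RNA per cell cannot be told apart. The microexons of Hpd, of tyrosine breakdown, with 7 and 234 included reads, of Itih3 with 4 and 117, and of Itih1 with 6 and 55 were likewise fuller in replicate 2. In all, 11 of the 338 microexons had over 5 times as many reads in replicate 2 and 3 had over 5 times as many in replicate 1, among these H2-Ab1 of MHC class II with 123 and 24. Cfi entered with both a 21-base and a 27-base exon. The share over internal exons of all lengths was not counted, so these numbers are not a result about microexons. What part other cells had in these values was not tested. Inclusion in Cfi, complement factor I, rested on 5 included and 0 skipping reads in replicate 1 and on 27 and 7 in replicate 2.

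Collagen genes held 44 of the 725 microexons, in 12 genes, and 42 of these had a length divisible by 3. Each exon of Col23a1, Col25a1, Col3a1 and Col6a5 rested on 1 read, in replicate 2. The share of collagen exons among internal exons of all lengths was not counted, so these counts describe the family only. Triple-helical collagen repeats a unit of 3 amino acids that starts with glycine, whose codons begin with GG. Of 39 collagen microexons of 27 bases with a reference sequence, 36 had GG at positions 1, 10 and 19, counted from the first exon base. Of the 24 collagen microexons with 10 reads, 23 were included in over 90% of reads. Col4a1, of basement membranes, had 290 and 150 included reads of the 27-base exon shown, and Col6a1 had 95 and 91, both with no skipping read. Col13a1 alone held 11, of which that shown was the optional one of the family, with 5 and 4 included and 7 and 5 skipping reads. The 44 exons share reads within a gene and are not independent.

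Reads that contained annotated microexons became rarer with shorter length. Counting annotated exons of 3 to 27 bases in genes with reads, whether or not a read included them, 288 of 22 to 27 bases had 10 reads over included and flank-joining reads, and 245 of these (85.1%) had an included read. The same held for 52 of 90 exons of 18 to 21 bases (57.8%), 7 of 61 exons of 12 to 17 bases (11.5%) and 0 of 39 exons of 3 to 11 bases. From the longest group to the shortest, 186, 34, 2 and 10 exons had no annotated skipping junction. Of these, 186, 34, 2 and 0 had an included read. Such exons reach 10 reads mostly through included reads, so the filter raised the shares, most of all at 22 to 27 bases. Summed exon by exon, the exons of 3 to 11 bases had 3363 counts of a read that joined the neighbours directly, and a read that skipped several of these exons was counted for each. Counting reads of all model classes, incomplete ones included, gave no annotated exon of 3 to 11 bases with an included read either.

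**Figure D3:**
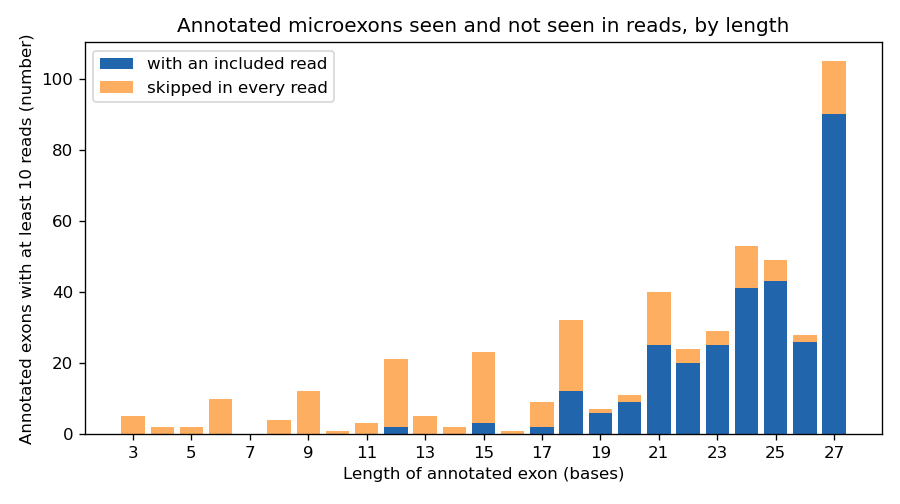
Number of annotated exons of 3 to 27 bases with at least 10 included or skipping reads (vertical axis) by length in bases (horizontal axis), divided into those with an included read and those skipped in every read. No bar from 3 to 11 bases has a part with included reads, while 90 of the exons of 27 bases do.

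Among the shortest, Phb2, which encodes prohibitin 2, skipped a 6-base exon in 359 and 302 reads, and 0 of 661 allows an inclusion of up to 0.454%, for counting error only. Nsfl1c, a cofactor of the p97 ATPase, skipped 6 bases in 91 and 91 reads, and Ap2m1, of the clathrin adaptor AP2, skipped 6 bases in 69 and 62. For 10 of the 39 exons of 3 to 11 bases, no annotated transcript joins the neighbours directly, and 0 of the 10 had an included read. The 10 exons lay in 7 genes, and the pairs in Mpc1, Sept7 and Spock2, with equal or nearly equal read counts within a gene, are not independent. Exons of 22 to 27 bases with no annotated skipping junction had an included read in 186 of 186 cases. Without such a junction an exon reaches 10 reads mostly through included reads, so that count was largely fixed by the filter. The 10 short exons passed it through flank-joining reads only, so these counts cannot be compared. The alignment method's handling of very short exons is not given in the sources used here, and its part in this pattern was not tested. Sept7, which has alternative 5-base exons with no annotated skipping, had 137 and 98 reads that joined their neighbours directly.

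A list of 52 genes known for neuronal microexons was examined next, a list chosen with earlier results of these data known. Annotated exons of 3 to 27 bases were present in 48 of these genes with reads, 117 exons in all, and 27 exons in 19 genes had 10 reads. Of the 27, 9 had an included read, and 18 had none, of which 14 were of 12 bases or longer. Over all annotated exons of 3 to 27 bases with 10 reads, 304 of 478 (63.6%) had an included read. Of these 478, 232 had no annotated skipping junction, and 222 of the 232 had an included read, so the filter raised that share. That comparison was not matched for length. Over all of them the share was 85.1% at 22 to 27 bases and 11.5% at 12 to 17 bases, so the list and the whole cannot be compared directly. Besides Abi1, Picalm, Dctn1 and the exons named next, Robo1, a Slit receptor, included 27 bases in 10 and 3 reads and skipped them in 3 and 2. Vav2 included a 22-base exon in 26 and 13 reads with no skipping, while both of its 15-base exons were skipped in all 38 reads. Mef2d and Mef2a, transcription factors with a short activation-domain exon in muscle and neurons, had 1 included read each, against 50 and 31 skipping reads. Ptprk, a receptor phosphatase, had 1 included of 10 reads.

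Exons of the list that were not included had up to 465 reads. Ergic3, of traffic between endoplasmic reticulum and Golgi, skipped its 15-base exon in 212 and 253 reads, which allows an inclusion of up to 0.645%. Dctn1 skipped a 15-base exon in 139 and 121 reads, with a limit of 1.15%. Kdm1a, the histone demethylase LSD1 with a well-known neuronal exon of 12 bases, skipped it in 48 and 29 reads, with a limit of 3.90%. Mef2c skipped 24 bases in 15 and 6 reads, and Cask, a synaptic scaffold, skipped 27 bases in 16 and 3. These limits hold for reads as the models place them.

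The regulators of microexons were measured as gene levels in CPM, which count reads of a transcript and are not divided by length. Srrm4, the neuronal activator, had 0 and 3 reads, and Srrm3, its relative, had 0 in both. The limit was 3.11 and 3.05 CPM in replicates 1 and 2. Srrm4 lay at that limit in replicate 2, and the other values were below it. Ptbp1, the repressor of neuronal exons, had 113 and 75 reads (96.6 ± 29.0 CPM, SD, n = 2), and its neuronal paralogue Ptbp2 had 19 and 10 (14.9 CPM). Srsf11 and Rnps1, which act with Srrm4 on microexons, had 86 and 51 reads and 69 and 42 reads. Of the Rbfox family, Rbfox2 had 22 and 23 reads, Rbfox3 11 and 6, and Rbfox1 1 and 1. Nova2 had 7 and 0 reads. Qk (quaking), Mbnl1 and Mbnl2, broadly used splicing regulators, had 88.9, 69.8 and 75.9 CPM on average. The 22 regulators summed to 655 and 488 CPM, and 20 of them had a read, and Srrm3 and Esrp1 had none.

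**Figure D4:**
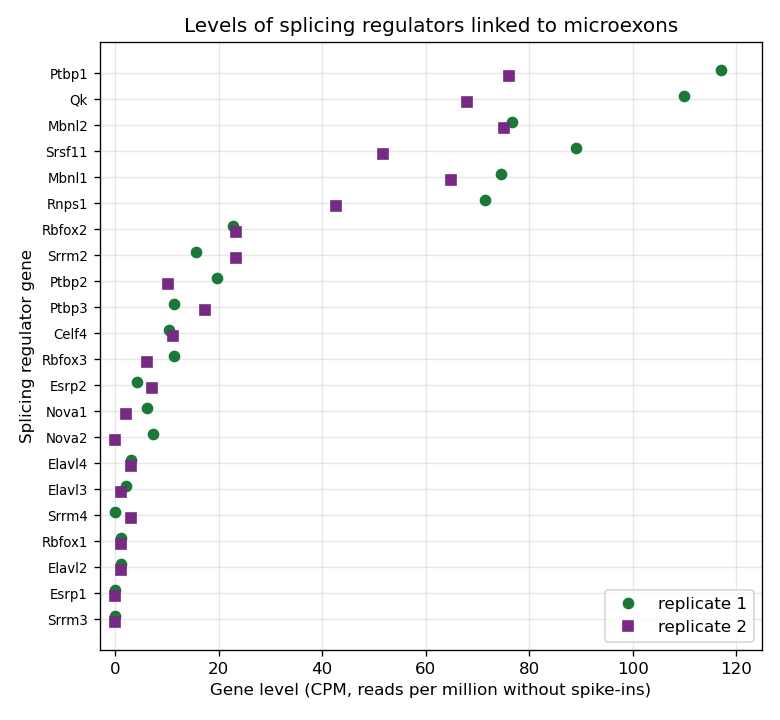
Gene levels in CPM (horizontal axis) of 22 splicing regulators (vertical axis) in replicate 1 and replicate 2, each point a library. Srrm3 and Esrp1 lie at 0 in both libraries, and Ptbp1 averages 96.6 CPM and Qk 88.9 CPM, an order that turns round with CPM over Known, NIC and NNC reads (100.1 and 104.0 CPM).

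Unannotated microexons were mostly rare forms. Of the 35 with 10 reads, 27 were included in under 10% of reads, and 23 of these rested on 1 included read. Ptcd3, of mitochondrial translation, was the exception in depth, with an unannotated 25-base exon at chr6:71889341-71889365 in 75 and 57 reads and no skipping read. Ccnl2, a cyclin of splicing kinases, had a 14-base exon in 4 and 5 reads against 26 and 25 skipping reads. Hand2os1, a long noncoding RNA beside Hand2, had a 24-base exon in 3 and 4 reads against 6 and 15. Its inclusion over both libraries was 25%, and 10% without models of a single read. Hbb-bs and Hbb-bt, the adult beta-globin genes, had a 24-base exon in 11 and 16 and in 6 and 2 reads, each with an intron of 60 bases after it. The globin genes are near copies, and how the reads were assigned to each is uncertain.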

How the data were processed

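Long-read RNA sequencing of adrenal gland was deposited as raw read counts for each transcript model, 1 table per library, together with exon coordinates of each model (mm10). Per the file headers the models carry TALON classes and identifiers of GENCODE M21. No aligner or setting is named in these sources. Counts of Known, NIC and NNC models were joined to the exon coordinates with Python 3.11.15 and pandas 2.3.3, and summed per internal exon into included and skipping reads per library. A skipping read joined exactly the ends of a pair of exons seen on either side of the microexon. Exons with at least 10 reads over both libraries were described. Fisher's exact test (scipy 1.17.1) was adjusted with Benjamini-Hochberg over internal exons of all lengths with 10 reads in each library. It was tried on simulated data with large shifts in deeply covered exons only. That does not show how well it finds smaller shifts or shifts in shallow exons. Wilson 95% intervals and limits for a count of 0 (3 reads) cover counting error only.

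Named microexons were the 25 with most reads among those with 20 reads and 5 to 95% inclusion, any past the test's threshold (none were), the 5 without skipping and the 5 unannotated ones with most included reads, those with 10 reads in the neuronal list, and the 3 shortest annotated ones. The microexons, lists and tests were chosen with earlier results of these data known. Qki of the regulator list is Qk in the annotation. Genes that overlap share reads in a few cases: the 725 microexons have 720 distinct positions. Class labels of the same splice pattern differed between the libraries' tables for 3.46% of 35118 patterns found in both, which can move reads in or out of the count. In Mpc1 this left 266 and 1 flank-joining reads.

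Alternatives were another set of model classes, another definition of skipping, minimum reads of 5 and 20, models with a single read left out, lengths of 3 to 30 bases, annotated exons only, an inclusion range of 5 to 95%, Holm adjustment, leaving out a library, and CPM over Known, NIC and NNC reads.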

Additional observations from a re-analysis of the deposited data

Results flagged for a closer look

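In reads of incomplete splice matches, which the counts above leave out, 15 further exons of 3 to 27 bases appeared. For 2 of them the reads exceeded the 3 that a count of 0 allows. A 26-base exon of Slc24a3, a sodium-calcium exchanger of the plasma membrane, had 6 reads, 3 and 3 in replicates 1 and 2. A 27-base exon of Gsdma3, a gasdermin, had 5 reads, 2 and 3.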

How the results depend on the processing

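The number of microexons with at least 10 reads (338) moved past 1.5 times only with lengths of 3 to 30 bases, to 536. The 55 that were both included and skipped became 19 with Known models only and 87 with a minimum of 5 reads, and stayed within 1.5 times elsewhere. Their share (16.3%) became 8.41% with Known models only, 17.9% with any intron that spans the exon counted as skipping, 20.9% and 14.4% with minimums of 5 and 20 reads, 12.9% with lengths of 3 to 30 bases and 22.8% with an inclusion range of 5 to 95%. The share of longer exons under these settings was 1.16%, 3.64%, 4.07%, 2.33%, 2.93% and 5.26%, below that of microexons in each. Leaving out a library gave 248 to 269 microexons, 38 to 44 optional ones, and shares of 15.3% to 16.4%. The median inclusion of 100% became 95.4% when any spanning intron counted. No setting with a test called a microexon between libraries. Of 44 named exons, 34 moved by under 10 percentage points under every alternative that gave a value, other than leaving out a library. No value was left for 15 of the 44 with Known models only and for 4 without models of a single read. The others moved by at least 10, most with Known models only, and the cause was not tested. Of 75 gene levels, 48 moved by less than 1 SD with CPM over Known, NIC and NNC reads, 10 rose and 17 fell. Microexons with fewer than 10 reads were too shallow for inclusion to be described. No paired analysis was possible because there is 1 group.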
